A study of Rattus norvegicus with 24 samples.

Results

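Catalase and the superoxide dismutases are 4 genes, Cat (ENSRNOG00000008364), Sod1 (ENSRNOG00000002115), Sod2 (ENSRNOG00000019048) and Sod3 (ENSRNOG00000003869), out of 32883 identifiers in each of the 2 deposited tables. They were chosen by name, with earlier results of these data known. All 4 were found and had levels high enough to be tested in both ventricles. The symbols are those given with the identifiers when the genes were chosen. Neither the tables nor the reference pair them with the identifiers, so they were not checked here. The tables hold RNA sequencing of 24 heart libraries from rats of strain WI: left ventricle with septum and right ventricular free wall, with 6 libraries per chamber in the group CTL, taken to mean control, and 6 in the group DAAO. DAAO usually stands for D-amino acid oxidase, an enzyme that forms hydrogen peroxide while it breaks down D-amino acids, and the series is titled as a study of chemogenetic heart failure. The sources used here do not give how the enzyme was delivered, its promoter, the substrate, the age and sex of the rats, or what the CTL animals received. Libraries are named here by the letter and number that head their columns, from C_7000 to C_7123 in CTL and from D_7135 to D_7146 in DAAO. All DAAO numbers lie above all CTL numbers, so the treatment and whatever else follows the numbering cannot be told apart. Each number occurs once per ventricle and was read as 1 animal, which no label states, and p-values measure the spread between these samples.

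Superoxide dismutases turn superoxide into hydrogen peroxide and oxygen, and catalase splits hydrogen peroxide into water and oxygen. The dismutases are kept apart in the cell: Sod2 encodes the manganese enzyme of the mitochondrial matrix, Sod1 the copper and zinc enzyme of the cytosol and the space between the mitochondrial membranes, and Sod3 a secreted copper and zinc enzyme held at the cell surface and matrix. Catalase sits mainly in peroxisomes, and in heart muscle it shares the removal of peroxide with glutathione peroxidases and peroxiredoxins. The comparison of DAAO with CTL asks whether an enzyme that makes peroxide goes with other transcript levels of the enzymes that remove peroxide and superoxide.

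In the left ventricle Sod2 fell by 36.9% in DAAO and Sod3 rose by 24.3%, while Sod1 and Cat did not pass the test. In the right ventricle Sod1 fell by 34.5% and Sod2 by 23.0%, and neither Sod3 nor Cat passed the test. These percentages compare group means of the deposited normalized counts. The tests were limma fits over all genes of a table, with Benjamini-Hochberg adjustment over all genes tested. Across all genes 37.3% were called in the left ventricle, 20.0% as lower and 17.3% as higher in DAAO, and 26.5% were called in the right, 14.0% as lower. With 4 genes, 2 of them called in each ventricle, the count says nothing particular about the list, and the values below are those of single genes. The plot of normalized counts by library shows each animal.

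**Figure D1:**
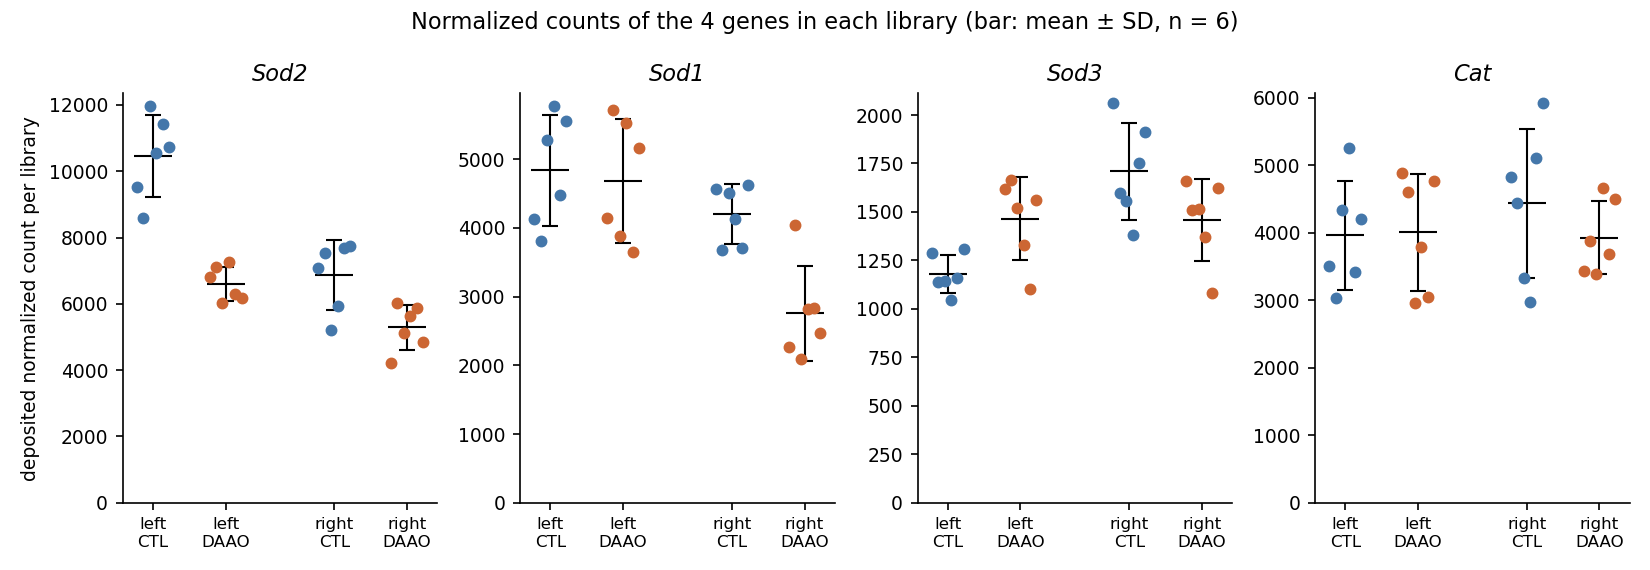
Deposited normalized count (y axis, from 0) of Sod2, Sod1, Sod3 and Cat in each library, by ventricle and group. Each point is 1 library, bars are mean and SD of 6. The 6 left DAAO libraries of Sod2 lie between 6015 and 7252, below the lowest left CTL library at 8594.

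The libraries of the left table held 15363539 to 23263897 recovered reads, and those of the right table held 13280705 to 18777633. The members rest on between 940 reads, for Sod3 in a left CTL library, and 12710 reads, for Sod2. In the right table all 6 DAAO libraries had a smaller total of normalized counts than all 6 CTL libraries, so the scaling matters. When all libraries were given the same total, the log2 fold change of the median gene moved from 0.015 to 0.22 (left) and from 0.022 to 0.27 (right), and each member moved up by about as much. The calls then split into 4337 higher and 1628 lower in the left ventricle, against 2430 and 2805 with the deposited scaling, and into 3815 and 932 in the right, against 1684 and 1890. Results are therefore also given on that scale. C_7000 and C_7005 had the smallest such totals of the CTL libraries in both tables and the lowest left CTL values of Sod2, and results are also given without them. In whole tissue, fewer cells of a type and less RNA per cell cannot be told apart, and the tissue was not checked against cell type markers, since the files give no gene names. The other genes of peroxide removal could not be looked up for the same reason.

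Sod2, the mitochondrial dismutase, was called lower in both ventricles. In the left ventricle its normalized count ranged from 8594 to 11956 in CTL, with a median of 10640, and from 6015 to 7252 in DAAO, with a median of 6552. The groups did not overlap: all 6 DAAO libraries lay below all 6 CTL libraries, as did those of 8.28% of the genes tested. The means were 10466 ± 1233 for CTL and 6608 ± 516 for DAAO (SD over n = 6). On the log2(value + 1) scale the fold change was -0.66 (SE 0.088, 95% interval -0.85 to -0.47, limma adjusted p = 0.000119). By its unadjusted p the gene ranked 490th of 14041, and its fold change lay at percentile 8.52 of all genes. The call held in each of the 12 fits that left out 1 animal, with log2 fold changes from -0.71 to -0.62. With equal totals the log2 fold change was -0.46 (limma adjusted p = 1.71e-05). Leaving out C_7000 and C_7005 gave -0.76 (limma adjusted p = 1.85e-05). As these are the lowest CTL values, that step could only make the fall larger.

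In the right ventricle the normalized count of Sod2 ranged from 5209 to 7737 in CTL, with a median of 7310, and from 4208 to 6018 in DAAO, with a median of 5376. The groups overlapped: 3 of 6 DAAO libraries lay below every CTL library, and C_7118 and C_7120, at 5209 and 5940, lay within the DAAO range. The log2 fold change was -0.37 (SE 0.13, 95% interval -0.64 to -0.10, limma adjusted p = 0.0432). That call lies at the threshold. It was lost without any 1 of C_7000, C_7005, C_7121, C_7123, D_7135, D_7138, D_7142 and D_7146, with limma adjusted p from 0.0510 to 0.0932. Leaving out both C_7000 and C_7005 raised it to 0.120. With equal totals the log2 fold change shrank to -0.13 (limma adjusted p = 0.416), while its place among all genes stayed close, at percentile 20.51 against 20.48.

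Sod1, the cytosolic dismutase, was called lower in the right ventricle and not in the left. In the right ventricle its normalized count ranged from 3683 to 4630 in CTL, with a median of 4319, and from 2095 to 4042 in DAAO, with a median of 2645. In DAAO 5 of 6 libraries lay below every CTL library, and the exception, D_7137 at 4042, lay inside the CTL range and apart from the 5 others, which reached at most 2831. The share of all genes with such a split was not counted. The means were 4204 ± 432 for CTL and 2755 ± 696 for DAAO (SD over n = 6). The log2 fold change was -0.64 (SE 0.14, 95% interval -0.94 to -0.33, limma adjusted p = 0.00551), at percentile 9.63 of all genes. The call held in each of the 12 fits without 1 animal, with log2 fold changes from -0.75, without D_7137, to -0.57. It also held with equal totals, at -0.39 (limma adjusted p = 0.0197). Leaving out C_7000 and C_7005 gave -0.65 (limma adjusted p = 0.0111).

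In the left ventricle Sod1 did not pass the test. Its normalized count ranged from 3816 to 5770 in CTL, with a median of 4877, and from 3653 to 5719 in DAAO, with a median of 4657. The ranges lay almost on top of each other. The log2 fold change was -0.053 (limma adjusted p = 0.791), with a 95% interval from -0.35 to 0.25. With equal totals it was 0.15 (limma adjusted p = 0.235), so no direction is given.

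The sequences just upstream of the genes are shown for the dismutases called lower in the right ventricle, Sod1 and, at the threshold, Sod2. They are the 250 bases before the RefSeq start in assembly GRCr8, at chr1:50050169-50050418 on the minus strand for Sod2 and chr11:42942573-42942822 on the plus strand for Sod1, while the reads were mapped to Rnor_6.0. Capitals mark matches to the motifs searched.
Sod2: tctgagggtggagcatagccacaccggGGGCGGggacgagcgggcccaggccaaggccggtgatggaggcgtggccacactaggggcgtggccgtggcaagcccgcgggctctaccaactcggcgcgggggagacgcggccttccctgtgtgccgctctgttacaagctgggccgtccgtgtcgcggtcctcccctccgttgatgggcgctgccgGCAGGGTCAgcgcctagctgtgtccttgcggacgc
Sod1: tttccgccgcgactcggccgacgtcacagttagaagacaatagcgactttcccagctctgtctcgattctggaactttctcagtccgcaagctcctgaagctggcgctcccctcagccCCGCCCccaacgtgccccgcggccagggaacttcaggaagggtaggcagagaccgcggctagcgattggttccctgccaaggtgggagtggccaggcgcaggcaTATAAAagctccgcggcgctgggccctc
On either strand the search took the antioxidant response element core TGACNNNGC, the forkhead element GTAAACA, the GC box GGGCGG, the TATA box TATAAA and the direct repeat bound by PPAR and RXR. No matches overlapped in these windows. The Sod2 window held 1 GC box and 1 antioxidant response element core. The first printed base of that core lies 35 bases before the start site, and the motif reads on the strand opposite to the gene. The Sod1 window held 1 GC box, on the strand opposite to the gene, and a TATA box that starts 28 bases before the start site. The Cat window held none of the motifs. Of 33469 rat windows of this length, 10.1% held the antioxidant response element core, 30.5% a GC box, 12.9% a TATA box, 3.21% a forkhead element and 0.0508% the direct repeat. The windows were 71.6% G and C for Sod2, 63.2% for Sod1 and 58.8% for Cat, against a median of 51.2%. These matches are letters in a window and were not tied to the changes.

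Sod3, the secreted dismutase, was called higher in the left ventricle and not called in the right. In the left ventricle its normalized count ranged from 1044 to 1308 in CTL, with a median of 1150, and from 1100 to 1666 in DAAO, with a median of 1541. In DAAO 5 of 6 libraries lay above every CTL library, and D_7143, at 1100, lay inside the CTL range. How many other genes split in this way was not counted. The means were 1180 ± 99.9 for CTL and 1466 ± 214 for DAAO (SD over n = 6). The log2 fold change was 0.30 (SE 0.10, 95% interval 0.088 to 0.52, limma adjusted p = 0.0296), at percentile 75.5 of all genes. This call lies near the threshold. It was lost without any 1 of C_7118, C_7120, C_7121, D_7135, D_7137, D_7138 and D_7146, at limma adjusted p from 0.0551 to 0.0678. The log2 fold change stayed between 0.26 and 0.38 over all 12 such fits, and was highest without D_7143 (limma adjusted p = 0.00265). With equal totals it was 0.50 (limma adjusted p = 0.00311). Leaving out C_7000 and C_7005 gave 0.32 (limma adjusted p = 0.0344).

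In the right ventricle the means of Sod3 stood in the opposite order, 1709 ± 249 for CTL and 1460 ± 212 for DAAO (SD over n = 6). Values ranged from 1379 to 2060 in CTL, with a median of 1673, and from 1082 to 1659 in DAAO, with a median of 1512, and 4 of 6 DAAO libraries lay inside the CTL range. The log2 fold change was -0.23 (95% interval -0.49 to 0.037, limma adjusted p = 0.184) and did not pass the threshold. With equal totals it was 0.018 (limma adjusted p = 0.930), so no direction is given.

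Catalase (Cat), the only member that breaks down peroxide, did not pass the test in either ventricle. In the left ventricle its normalized count ranged from 3040 to 5260 in CTL, with a median of 3859, and from 2962 to 4884 in DAAO, with a median of 4196. The means were 3963 ± 805 and 4011 ± 868 (SD, n = 6 each), and the log2 fold change was 0.012 (95% interval -0.33 to 0.36, limma adjusted p = 0.963), and 0.21 with equal totals (limma adjusted p = 0.228). In the right ventricle it ranged from 2980 to 5917 in CTL, with a median of 4632, and from 3395 to 4661 in DAAO, with a median of 3784, so that all 6 DAAO libraries lay inside the CTL range. The log2 fold change there was -0.15 (95% interval -0.49 to 0.20, limma adjusted p = 0.523), and 0.10 with equal totals. The intervals leave room for changes of about the size seen in Sod3, so the data do not show that Cat was the same in the groups. The CTL spread was wide, with a coefficient of variation of 20.3% in the left and 25.0% in the right ventricle, and C_7118 and C_7120 had the highest left values of the CTL group and the lowest right ones.

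**Figure D2:**
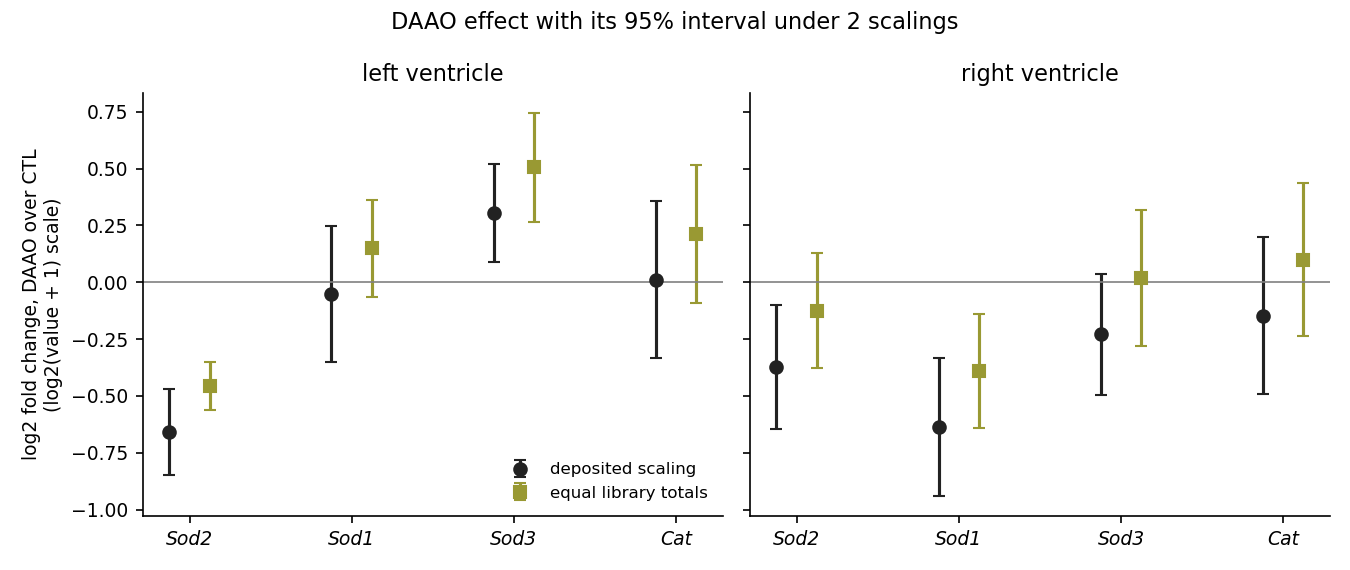
Log2 fold change of DAAO over CTL (y axis, log2(value + 1) scale) for each gene in the left and right ventricle, with the limma 95% interval, for the deposited scaling (circles) and for equal library totals (squares). Under both scalings the interval of Sod2 in the left and of Sod1 in the right ventricle lies below 0 and that of Sod3 in the left lies above it, while that of Sod2 in the right includes 0 with equal totals.

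Ratios between members within a library do not depend on how that library was scaled. They compare normalized counts not corrected for gene length, so only their change between libraries has a meaning. In the left ventricle the ratio of Sod2 to Sod1 ranged from 1.83 to 2.55 in CTL and from 1.20 to 1.72 in DAAO, without overlap. The ratio of Sod2 to Sod3 ranged from 7.41 to 10.5 in CTL and from 3.95 to 5.72 in DAAO, again without overlap. On the log2 scale these were differences of -0.61 and -0.96, both with the smallest p that 6 against 6 allows (two-sided exact permutation p = 0.00216, adjusted p = 0.0130 by Benjamini-Hochberg over 12 ratio tests). How many other pairs of genes separate without overlap was not counted. The ratio of Sod2 to Cat fell as well, by 0.67 on the log2 scale (exact permutation p = 0.00649, Benjamini-Hochberg adjusted p = 0.0260), in 4 of 6 DAAO libraries to below every CTL library. That last call was lost without C_7121, at -0.60 and an adjusted p of 0.0519. Sod2 was thus lower in the left ventricle relative to each other member, a comparison that the scaling does not enter. Without C_7000 and C_7005 these 3 differences were -0.57, -1.08 and -0.64, at exact permutation p of 0.00952, 0.00476 and 0.0190, each with an adjusted p of 0.0571, so that none was called. Without C_7118 and C_7120, which leaves as many animals, they were -0.65, -0.85 and -0.76 and all called (exact permutation p = 0.00476, adjusted p = 0.0190 each).

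In the right ventricle none of the 6 ratios passed the threshold. The ratio of Sod1 to Cat was nearest: it ranged from 0.725 to 1.38 in CTL and from 0.548 to 1.04 in DAAO, a log2 difference of -0.49 (exact permutation p = 0.0519, Benjamini-Hochberg adjusted p = 0.156). The ratio of Sod2 to Sod1 was 1.62 in CTL and 1.95 in DAAO as geometric means, a log2 difference of 0.27 (exact permutation p = 0.134, Benjamini-Hochberg adjusted p = 0.196). Without D_7137, the DAAO library with the highest Sod1, the difference for Sod1 to Cat was -0.61 (adjusted p = 0.0390). The right ventricular falls of Sod1 and Sod2 were measured against all genes of the table.

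A difference of the DAAO effect between the chambers was tested as the left minus the right effect, since the tables were normalized separately. For Sod1 the difference was 0.58 on the log2 scale (SE 0.20, 95% interval 0.16 to 1.01) and for Sod3 it was 0.53 (SE 0.16, 95% interval 0.20 to 0.87). Neither passed the threshold in the fit without pairing (limma adjusted p = 0.119 and 0.0706), in which 2.93% of 13344 genes were called. With the animal number as a replicate block, which called 8.03% of genes, both passed it (limma adjusted p = 0.0176 for Sod1 and 0.00570 for Sod3), and Sod3 ranked 21st of 13344 genes by p. In fits added after the data were seen, the blocked call of Sod3 held in each of 12 without 1 animal, and that of Sod1 was lost without D_7146 (limma adjusted p = 0.0501). Leaving out C_7000 and C_7005 also ended the call of Sod1, at a limma adjusted p of 0.0698. The block takes left and right libraries of a number as 1 animal. The left libraries of C_7118, C_7120 and C_7123 were, however, more like the right library of another CTL number than their own. Over all genes, C_7118 and C_7120 showed the least likeness between their libraries, and without them the blocked adjusted p was 0.0219 for Sod1 and 0.0118 for Sod3. Sod2 differed by -0.29 (95% interval -0.60 to 0.030, limma adjusted p = 0.341, blocked 0.246) and Cat by 0.16 (95% interval -0.33 to 0.64, limma adjusted p = 0.805, blocked 0.712), so neither passed in either fit. With 1 animal left out these ranged from -0.37 to -0.17 for Sod2, nearest 0 without C_7118, and from 0.059 to 0.35 for Cat, highest without C_7120 and lowest without D_7135. Without both C_7118 and C_7120 they were -0.087 for Sod2 and 0.53 for Cat (limma adjusted p = 0.906 and 0.295, blocked 0.742 and 0.0561).

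The ratio of the mitochondrial to the cytosolic dismutase ran in opposite order across the chambers in CTL and DAAO. How many other pairs of genes do so was not counted, nor was it for the orders across chambers given below. In all 6 CTL animals the ratio of Sod2 to Sod1 was higher in the left than in the right library, by 0.42 ± 0.31 on the log2 scale (SD, n = 6, exact sign-flip permutation p = 0.0312, Benjamini-Hochberg adjusted p = 0.0469 over 12 tests). In all 6 DAAO animals it was lower in the left, by a left minus right value of -0.45 ± 0.24 (SD, n = 6, exact sign-flip permutation p = 0.0312, adjusted p = 0.0469). Left and right values here and below pair libraries by number, although the left libraries of C_7118, C_7120 and C_7123 were not most like their own right ones. Without pairing, the left and right ratios overlapped, at 1.83 to 2.55 and 1.16 to 2.07 in CTL. In DAAO they were 1.20 to 1.72 and 1.49 to 2.45, so the counts of animals depend on the pairing. With 6 animals this is the smallest p possible, and with 5 or fewer no such test can pass. Several of the 12 tests, all on ratios of the same members, tied at this p. Each adjusted p of 0.0469 rests on these ties. The difference of these values, -0.87, was tested after the values were seen, by permuting the group labels of the animals (exact permutation p = 0.00216, Benjamini-Hochberg adjusted p = 0.0130 over 6 ratios). This difference combines the Sod2 and Sod1 changes of both chambers given above and is not separate from them. It stayed between -0.93 and -0.76 when 1 animal was left out, and its call held in each of these 12 cases.

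**Figure D3:**
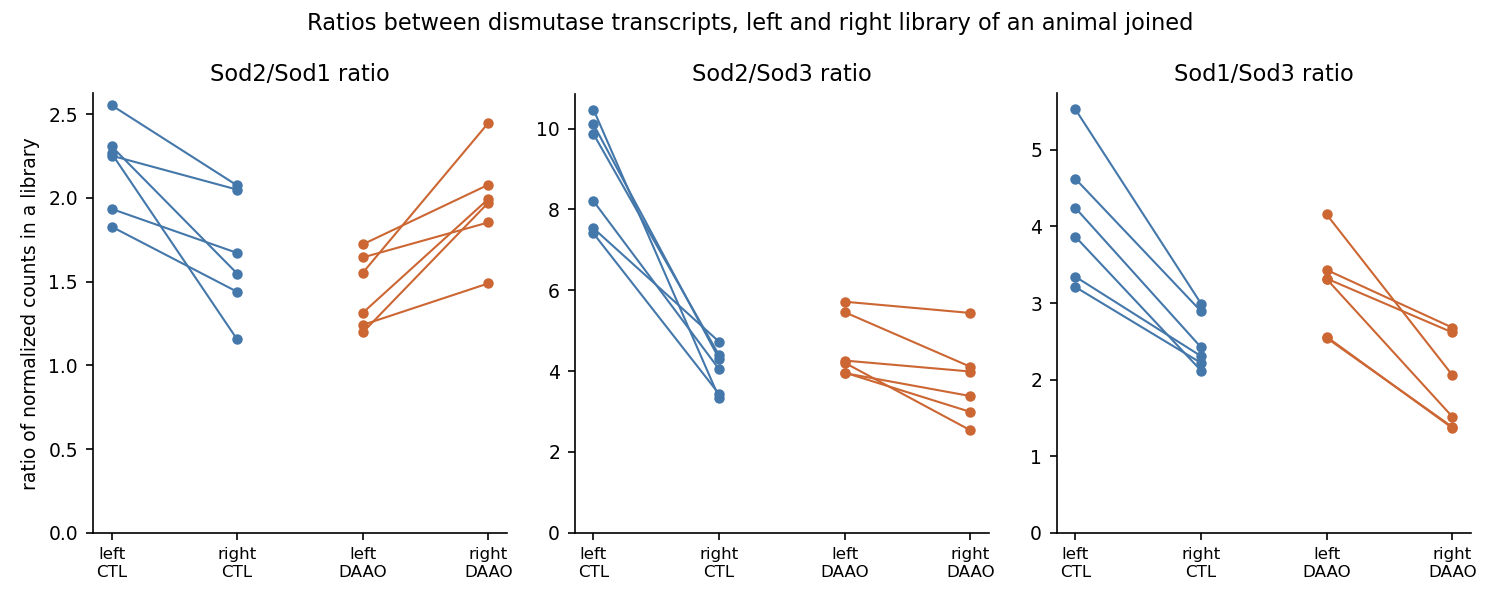
Ratio of normalized counts within a library (y axis, from 0) for Sod2 to Sod1, Sod2 to Sod3 and Sod1 to Sod3, with the left and right library of an animal joined by a line, CTL in blue and DAAO in orange. Sod2 to Sod1 runs down from left to right in all 6 CTL animals and up in all 6 DAAO animals, while Sod1 to Sod3 runs down in all 12.

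The ratios with Sod3 below them had the same order across the chambers in both groups. Sod2 to Sod3 was higher in the left library of all 6 CTL animals, by 1.14 ± 0.32, and of all 6 DAAO animals, by 0.32 ± 0.25 (SD, n = 6 each, exact sign-flip permutation p = 0.0312, adjusted p = 0.0469 for each). The left excess was smaller in DAAO by a difference of -0.82, in the same test added after the values were seen (exact permutation p = 0.00433, Benjamini-Hochberg adjusted p = 0.0130). Sod1 to Sod3 was higher in the left library of all 12 animals, by 0.72 ± 0.16 for CTL and 0.77 ± 0.34 for DAAO (SD over n = 6), and the groups differed by 0.053 (exact permutation p = 0.721, which does not show that they were alike).

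Ratios to Cat were compared across the chambers in the same way. Sod2 to Cat was higher in the left library of 6 of 6 CTL animals, by 0.76 ± 0.40, and of 5 of 6 DAAO animals, by 0.32 ± 0.23 (SD over n = 6, exact sign-flip permutation p = 0.0312 and 0.0625, adjusted p = 0.0469 and 0.0833). Sod1 to Cat was higher in the left library of 4 of 6 CTL animals, by 0.34 ± 0.49, and of 6 of 6 DAAO animals, by 0.76 ± 0.41 (SD over n = 6, exact sign-flip permutation p = 0.188 and 0.0312, adjusted p = 0.205 and 0.0469). Sod3 to Cat was higher in the left library of 1 of 6 CTL and 3 of 6 DAAO animals, with mean left minus right values of -0.38 and -0.0057 on the log2 scale. None of these ratios differed between the groups past the threshold: the differences of DAAO and CTL were -0.44 for Sod2 to Cat, 0.43 for Sod1 to Cat and 0.37 for Sod3 to Cat (exact permutation p = 0.0433, 0.139 and 0.175, adjusted p = 0.0866, 0.208 and 0.210).

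The members did not all rise and fall together from library to library. Over the 12 libraries of a table, which share group and scaling, Pearson r between members ranged from -0.62, for Sod2 with Sod3 in the left ventricle, to 0.75, for Cat with Sod1 there. In the right table the 6 values were all above 0, from 0.29 to 0.69. The gene whose log2 values were most like those of Sod2 in both tables was ENSRNOG00000004027, with r of 0.97 in the left and 0.96 in the right over 12 libraries each, and it fell in both (log2 fold change -0.61, limma adjusted p = 0.000294, and -0.53, limma adjusted p = 0.0205). For Sod1 it was ENSRNOG00000018943, with r of 0.91 and 0.93, which was called lower in the right only (log2 fold change -0.49, limma adjusted p = 0.0439, against -0.15, limma adjusted p = 0.421, in the left). Each r includes the group difference. The closest genes to Sod3 and Cat reached only r of 0.66 and 0.71 in the table where they were less alike.

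The plot of adjusted p under each alternative sets the 4 calls side by side. Sod2 in the left and Sod1 in the right ventricle stayed below 0.05 in every alternative run. Sod3 in the left and Sod2 in the right crossed it when single animals were left out. Sod2 in the right also crossed it with equal totals, with no filter on the mean count, and without both C_7000 and C_7005.

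**Figure D4:**
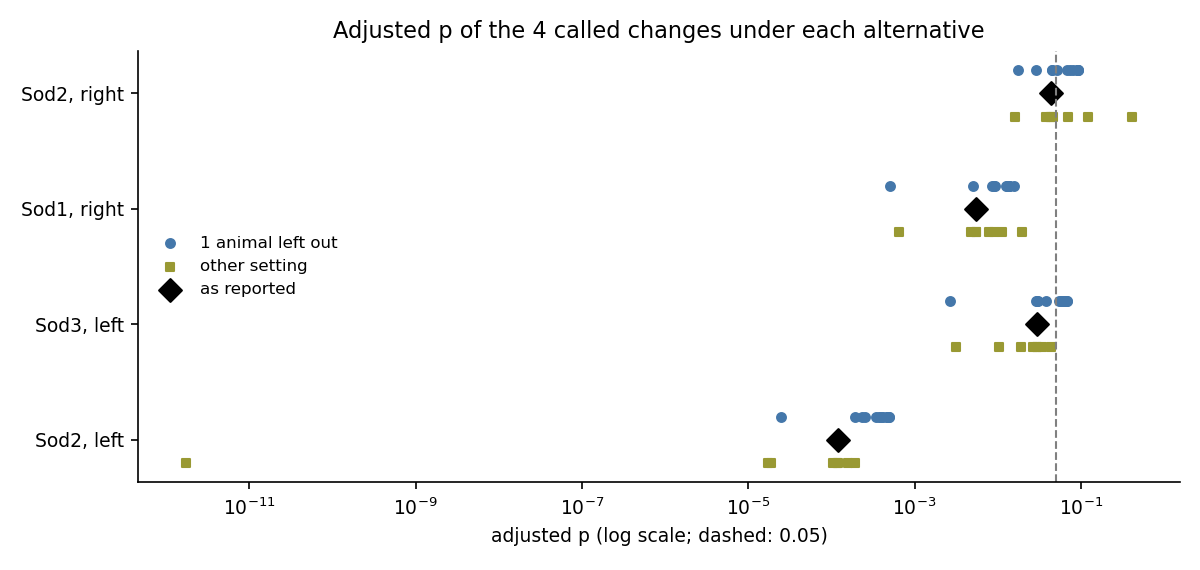
Adjusted p (x axis, log scale, dashed line at 0.05) of the 4 called changes as reported (diamonds), with 1 animal left out (circles) and under the other settings (squares). The circles reach at most 0.000499 for Sod2 in the left and 0.0158 for Sod1 in the right ventricle, and 0.0678 and 0.0932 for Sod3 in the left and Sod2 in the right.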

How the data were processed

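Left and right ventricular RNA was sequenced under 12 numbers, 6 per group, each read as 1 rat. The submitters' processing notes name DESeq2 1.26.0, FastQC, the aligner STAR 2.7.0a and the build Rnor_6.0. The sources used here do not give the read counter, annotation or strand setting. The deposited values are normalized counts, a signal of gene counts that the authors divided by 1 size factor per library in each table. Dividing each value by the smallest value above 0 of its library gave whole numbers (100% within 1e-06), which were taken as reads.

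The test was limma 3.58.1 (R 4.3.3) with a mean-variance trend on log2(value + 1) for genes with a mean of at least 10, two-sided, adjusted over all genes tested, at 0.05. Left minus right effects were fitted over all 24 libraries. edgeR 4.0.16 (quasi-likelihood, TMM) and DESeq2 1.42.0 on recovered reads were alternatives, and fits were tested on simulated data. Ratios were tested by exact permutation over 924 assignments of libraries or 64 sign flips. Added after the values were seen were the tests of the difference in ratios between the chambers, all alternatives without C_7118 and C_7120, and the blocked fits with equal totals, without C_7000 and C_7005, or without 1 animal in turn. The members and lists were chosen with earlier results of these data known. Genes to be named were the 4 members and the most similar gene of each, of which identifiers that fell are printed.

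Left and right libraries of a number were read as 1 animal. The correlation of their deviations from the group mean, across genes, was between 0.057 and 0.79 with a median of 0.55, over 0.1 in 10 of 12 animals. The left libraries of C_7118, C_7120 and C_7123 were more like the right library of another CTL number than their own. For every other number the own right library was the closest of its group. Blocked values are therefore printed beside the others and rest on this reading, as do the comparisons of ratios between left and right libraries. The reference (GRCr8) matched 0 of 32883 identifiers, so 13 fixed lists of 109 pathway and marker genes were not run. By symbol it held promoters for Sod1, Sod2 and Cat, but Sod3 is named only. It names a pseudogene, Sod2-ps1, and a gene overlapping Cat, LOC134486130, and sharing of reads with them was not tested.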

Additional observations from a re-analysis of the deposited data

Results flagged for a closer look

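The DAAO effect on Sod1 differed between the ventricles by 0.58 on the log2 scale and that on Sod3 by 0.53, left minus right, in the limma fit with the animal number as a replicate block (limma adjusted p = 0.0176 and 0.00570). The fit without the block did not call them. The log2 ratio of Sod2 to Sod1 responded differently in the chambers, by -0.87, and that of Sod2 to Sod3 by -0.82 (exact permutation p = 0.00216 and 0.00433, Benjamini-Hochberg adjusted p = 0.0130 for both). Both of these ratio tests were added after the values were seen. With each number read as 1 animal, left minus right for Sod2 to Sod1 was above 0 in all 6 CTL and below 0 in all 6 DAAO animals. The share of gene pairs with such a split was not counted. No library stood apart from its group by Dixon's ratio in any of the 16 groups of 6 values. The nearest was Sod1 in the right DAAO libraries, with D_7137 at a ratio of 0.622, just under the critical value for 6 samples.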

How the results depend on the processing

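Over the alternatives run, Sod2 in the left and Sod1 in the right ventricle kept direction and call. With 1 animal left out in turn, log2 fold changes were 0.26 to 0.38 for Sod3 in the left, -0.45 to -0.31 for Sod2 in the right, -0.060 to 0.10 for Cat in the left and -0.12 to 0.014 for Sod1 in the left ventricle, and -0.25 to -0.056 for Cat and -0.29 to -0.15 for Sod3 in the right. Left minus right it gave 0.52 to 0.67 for Sod1, called without D_7137, and 0.50 to 0.56 for Sod3, called without D_7143, with -0.37 to -0.17 for Sod2 and 0.059 to 0.35 for Cat, never called. With no filter, Sod2 in the right kept its -0.37 and lost its call (limma adjusted p = 0.0708). Equal totals gave -0.13 for it, 0.15 for Sod1 and 0.21 for Cat in the left, and 0.10 for Cat and 0.018 for Sod3 in the right. Without C_7000 and C_7005, Sod2 in the right was -0.32, Cat in the left -0.12, Cat in the right -0.096, Sod1 in the left -0.19, Sod2 left minus right -0.44 (limma adjusted p = 0.165, blocked 0.103), and Cat left minus right -0.020 with and without the block.

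With the replicate block, Sod1 and Sod3 left minus right were called at 0.58 and 0.53, with equal totals as well at 0.54 and 0.49, and without C_7118 and C_7120 at 0.67 and 0.58. Without C_7000 and C_7005, blocked Sod3 was called at 0.50. The block changed no other member's call. Genes called left minus right numbered 391, and 1072 with the block, 1018 with block and equal totals, 721 with the block without C_7000 and C_7005, 236 without these and no block, 55 without C_7118 and C_7120, and 85 to 616 with 1 animal left out.

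Among ratios in the left ventricle, those of Sod2 to Sod1, Sod3 and Cat lost their calls without C_7000 and C_7005, at -0.57, -1.08 and -0.64, and kept them without C_7118 and C_7120, also 4 against 6 animals, at -0.65, -0.85 and -0.76 (adjusted p = 0.0190 each). One animal left out gave -0.75 to -0.59 for Sod2 to Cat and -0.13 to 0.029 for Sod1 to Cat there, and -0.61 to -0.39 for Sod1 to Cat in the right ventricle, called without D_7137. Left minus right it gave -0.59 to -0.37 for Sod2 to Cat, -0.019 to 0.14 for Sod1 to Sod3, and, in DAAO, -0.066 to 0.10 for Sod3 to Cat. Without C_7118 and C_7120, Sod2 to Cat left minus right was called at -0.62 and Sod3 to Cat in the right was 0.040. Without C_7000 and C_7005, Sod1 to Sod3 left minus right was -0.039. The causes were not tested. edgeR and DESeq2 on recovered reads called the same member changes within each ventricle as limma. Each member rests on at least 940 reads in every library, so the 6 animals per group, more than depth, limit the precision.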
